A study of Mus musculus with 106 samples.

Results

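Major histocompatibility complex (MHC) molecules carry peptides to the cell surface for T cells to read. Class I molecules pair a heavy chain with B2m (β2-microglobulin), load peptides cut by the immunoproteasome and pumped into the endoplasmic reticulum by the Tap transporter, and are made by nearly every nucleated cell. Class II molecules pair an α and a β chain, travel with the invariant chain Cd74, exchange peptides with the help of H2-DM, and are made mainly by B cells, dendritic cells and macrophages. Interferon-γ raises both classes, class I through Irf1 and the activator Nlrc5, class II through the activator Ciita, and both activators act with the Rfx factors on a shared promoter module. Histone H3 acetylated on lysine 27 (H3K27ac) marks active promoters and enhancers, and histone H3 trimethylated on lysine 4 (H3K4me3) marks active promoters.

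The promoters of 53 MHC and antigen presentation genes were followed among 21938 protein-coding genes. They were the protein-coding genes whose symbol starts with H2- together with 19 named genes of peptide processing, transcriptional control and costimulation. By role they comprised 2 classical class I heavy chains (H2-K1 and H2-D1), 22 nonclassical class I heavy chains, 10 class I processing genes, 4 class II chains, 6 class II accessory genes, 5 regulators and 3 costimulatory genes. The remaining gene, H2-Ke6, encodes a steroid dehydrogenase and carries the prefix only because it lies in the MHC.

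The libraries came from C57BL/6J mice aged 12 to 14 weeks, either control or made diabetic with streptozotocin at 42 to 45 mg/kg daily for 5 days, with tissue taken 6 weeks later at blood glucose above 13.9 mmol/L. HSCs were whole bone marrow depleted of cells bearing CD3, CD4, B220, Ter119 or Gr1, a preparation enriched for stem cells but not pure. Bone marrow-derived macrophages (BMDMs) were grown for 7 days in L929-conditioned medium at 5 mmol/L glucose and then held for 16 hours in medium alone (unstimulated) or with lipopolysaccharide at 100 ng/mL and interferon-γ at 10 ng/mL (LPS+IFN-γ). Each mark had 6 libraries per group, except unstimulated diabetic BMDMs with 5, which makes 35 libraries per mark.

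A peak list had been made for each library against the input of the same cells. H3K27ac lists held 51162 to 176559 peaks (median 124083) and H3K4me3 lists 13730 to 277213 (median 96580). Because the lists give no read totals, each promoter was ranked within its own library. The promoter percentile is the place of a gene's strongest promoter peak (within 1 kb of any annotated start site, by −log10 p) among all protein-coding genes, with 100 as the strongest. Genes beyond the order reached by the list with the fewest marked promoters share a floor of 21.6 for H3K27ac and 29.6 for H3K4me3, so a gene at the floor may still carry a weak peak. A strong peak is one of a library's 10000 strongest. A list covers the whole cell population, so marked cells becoming fewer and less mark per cell cannot be told apart.

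Some libraries stood apart from their labels. On genes outside the 53 that separated stimulated from unstimulated diabetic BMDMs (148 higher and 258 lower), the H3K27ac score of control LPS+IFN-γ replicate 5 was -11.6, below the 3.49 to 17.4 of the other 5, and unstimulated control replicates 5 and 6 scored 6.82 and 4.98, above the -18.7 to -2.81 of the other 4. Comparisons that use these 3 libraries are given with them, and for some results also without them. On the like score for H3K4me3 (18 genes higher and 35 lower) the same replicates stood apart, at -16.0 for control LPS+IFN-γ replicate 5 and at 6.02 and 4.14 for unstimulated control replicates 5 and 6. Control LPS+IFN-γ replicates 6 (-12.6) and 3 (-1.35) also scored below 0 there, though not for H3K27ac, and they were left out only 1 at a time. For H3K27ac, progenitor markers were above the floor in HSC libraries (8 to 10 of 10 genes) and less often in BMDMs (3 to 8). Macrophage markers were above it in 1 to 5 of 10 in HSCs and 5 to 10 in BMDMs. Adgre1, Lyz2, Fcgr1 and Itgam, defining macrophage markers, were at the floor in all 5 libraries of unstimulated diabetic BMDMs. Of 8 markers each, 5 to 8 erythroid, 2 to 5 T cell and 0 to 6 B cell markers were above the floor in HSC libraries, and 2 to 4, 1 to 5 and 0 to 3 in BMDMs. For H3K4me3, progenitor markers were above the floor in 5 to 8 of 10 in HSCs and 4 to 8 in BMDMs. Macrophage markers were above it in 1 to 3 and 1 to 5, so for that mark these lists hardly separated the cell types.

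Promoter sequences from RefSeq (GRCm38.p6, 250 bases before to 50 after the start) were found for 43 of the 53 genes. The stretches below are printed to show which promoter elements the genes described here carry. Capitals mark matches, on either strand, to enhancer A (GGGGANTCCC), the interferon-stimulated response element ISRE (GAAANNGAAA), the X box (AGNNACNGATG) or the Y box (GATTGG), each printed along the strand of its gene. The letters of the longer motifs were read from H2-D1, B2m and H2-Eb1, with N for a free base. The classical class I genes and the H2-Q genes with the largest differences after stimulation share an enhancer A. The printed stretch of H2-K1 stops at a start site, and its Y box match (chr17:34000334-34000339) lies just past that end.
H2-K1: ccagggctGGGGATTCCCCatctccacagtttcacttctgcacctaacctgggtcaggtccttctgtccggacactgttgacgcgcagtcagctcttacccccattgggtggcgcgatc
H2-D1: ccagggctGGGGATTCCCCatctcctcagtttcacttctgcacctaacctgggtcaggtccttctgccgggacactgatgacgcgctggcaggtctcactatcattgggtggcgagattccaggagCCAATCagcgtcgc
H2-Q6: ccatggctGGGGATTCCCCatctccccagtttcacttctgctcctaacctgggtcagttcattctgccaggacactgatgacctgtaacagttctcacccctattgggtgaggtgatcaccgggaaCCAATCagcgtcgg
H2-Q7: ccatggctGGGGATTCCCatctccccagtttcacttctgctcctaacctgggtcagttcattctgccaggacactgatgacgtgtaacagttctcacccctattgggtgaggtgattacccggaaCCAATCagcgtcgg
The next class I genes match the ISRE letters and not those of enhancer A, a contrast that holds for these exact letters only.
H2-T22: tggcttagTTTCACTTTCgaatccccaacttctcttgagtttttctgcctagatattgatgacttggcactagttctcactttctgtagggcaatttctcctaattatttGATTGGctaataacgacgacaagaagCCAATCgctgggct
B2m: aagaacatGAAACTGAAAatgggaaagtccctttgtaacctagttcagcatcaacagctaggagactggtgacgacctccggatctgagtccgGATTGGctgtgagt
The class II genes H2-Eb1 and H2-DMb1 carry an X box followed by a Y box. H2-M10.1 also matches both, but its Y box match is on the other strand and lies farther from the X box. Their first bases are at -216 and -76 from the start, against -92 and -60 in H2-Eb1. H2-M10.1 is shown because its promoter was at the floor in every library.
H2-Eb1: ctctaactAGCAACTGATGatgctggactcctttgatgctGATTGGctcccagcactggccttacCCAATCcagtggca
H2-DMb1: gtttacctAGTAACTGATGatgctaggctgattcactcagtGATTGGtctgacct
H2-M10.1: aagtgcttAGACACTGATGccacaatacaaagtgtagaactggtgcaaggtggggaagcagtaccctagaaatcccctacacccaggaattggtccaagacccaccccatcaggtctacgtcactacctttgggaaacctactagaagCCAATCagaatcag
Psmb9 and Tap1, an immunoproteasome subunit and a chain of the peptide transporter, are read from opposite strands of a single promoter.
Psmb9 to Tap1: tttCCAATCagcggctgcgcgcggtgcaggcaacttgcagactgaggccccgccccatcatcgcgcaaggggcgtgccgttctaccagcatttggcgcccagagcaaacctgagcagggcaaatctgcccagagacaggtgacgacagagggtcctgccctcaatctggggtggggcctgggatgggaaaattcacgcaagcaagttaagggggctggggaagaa

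Those stretches lie at chr17:34000348-34000466 (H2-K1), chr17:35262915-35263054 (H2-D1), chr17:35424669-35424808 (H2-Q6), chr17:35439014-35439152 (H2-Q7), chr17:36042792-36042941 (H2-T22), chr2:122147540-122147646 (B2m), chr17:34305767-34305845 (H2-Eb1), chr17:34153088-34153142 (H2-DMb1), chr17:36326213-36326374 (H2-M10.1) and chr17:34187331-34187555 (Psmb9 to Tap1). H2-K1, H2-T22, H2-M10.1 and Psmb9 lie on the minus strand. Enhancer A matched 4 of the 43 genes and 0.323% of all 32851 promoter entries. In H2-K1, H2-D1 and H2-Q6 it reads on both strands at once, so that the matches overlap. The X box matched 9 (H2-Eb1, H2-Eb2, H2-DMb1, H2-Oa, Psmb10 and H2-M10.1, H2-M10.2, H2-M10.5 and H2-M10.6) and 0.968% of entries. The Y box matched 30 and 16.1%, and the ISRE 5 (B2m, Erap1, H2-T22, H2-T23 and Psme1) and 3.44%. The interferon-γ activated site (GAS, TTCNNNGAA) matched 4 (Psmb8, H2-DMb2, H2-M3 and H2-M11) and 8.30%. H2-D1, H2-Eb1 and B2m match by construction, since letters were read from them, and close copies of these promoters share the letters. A gene counts if any of its entries matches, while the percentages are over entries. For enhancer A, the X box and the ISRE the counts are therefore no measure of enrichment. A match describes letters only, and a promoter with none may use other letters or lie outside the window.

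H2-Q6 and H2-Q7 differ by 4 single-base differences over these 140 and 139 bases, H2-K1 and H2-D1 by 13 over 119. The reads were 50 bases long, so near copies can share them. Within 1 kb of the start sites, 35.1% of 50-base words at H2-Q7 occurred once in the genome, 42.2% at H2-Q6, 58.8% at H2-T23, 75.2% at H2-T22, 84.1% at H2-K1 and 90.1% at H2-D1. The values of H2-Q6, H2-Q7 and H2-T23 are therefore uncertain as to gene, while 44 of the 53 exceeded 90%.

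Marking differed between the roles. H3K27ac was above the floor in all 35 libraries at both classical heavy chains, at 10 of 10 class I processing genes and at 6 of 22 nonclassical heavy chains (H2-Q4, H2-Q6, H2-Q7, H2-T22, H2-T23 and H2-M3). It was above the floor in no library at 10 nonclassical genes, all of the telomeric H2-M group (H2-M1, H2-M2, H2-M9, H2-M10.1 to H2-M10.6 and H2-M11). None of the 4 class II chains was above the floor throughout, and neither was any of the 3 costimulatory genes. Over the 53 genes, 23 (43.4%) were above the floor in all 35 libraries, against 42.2% of all protein-coding genes, and 10 (18.9%) in none, against 25.5%.

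**Figure D1:**
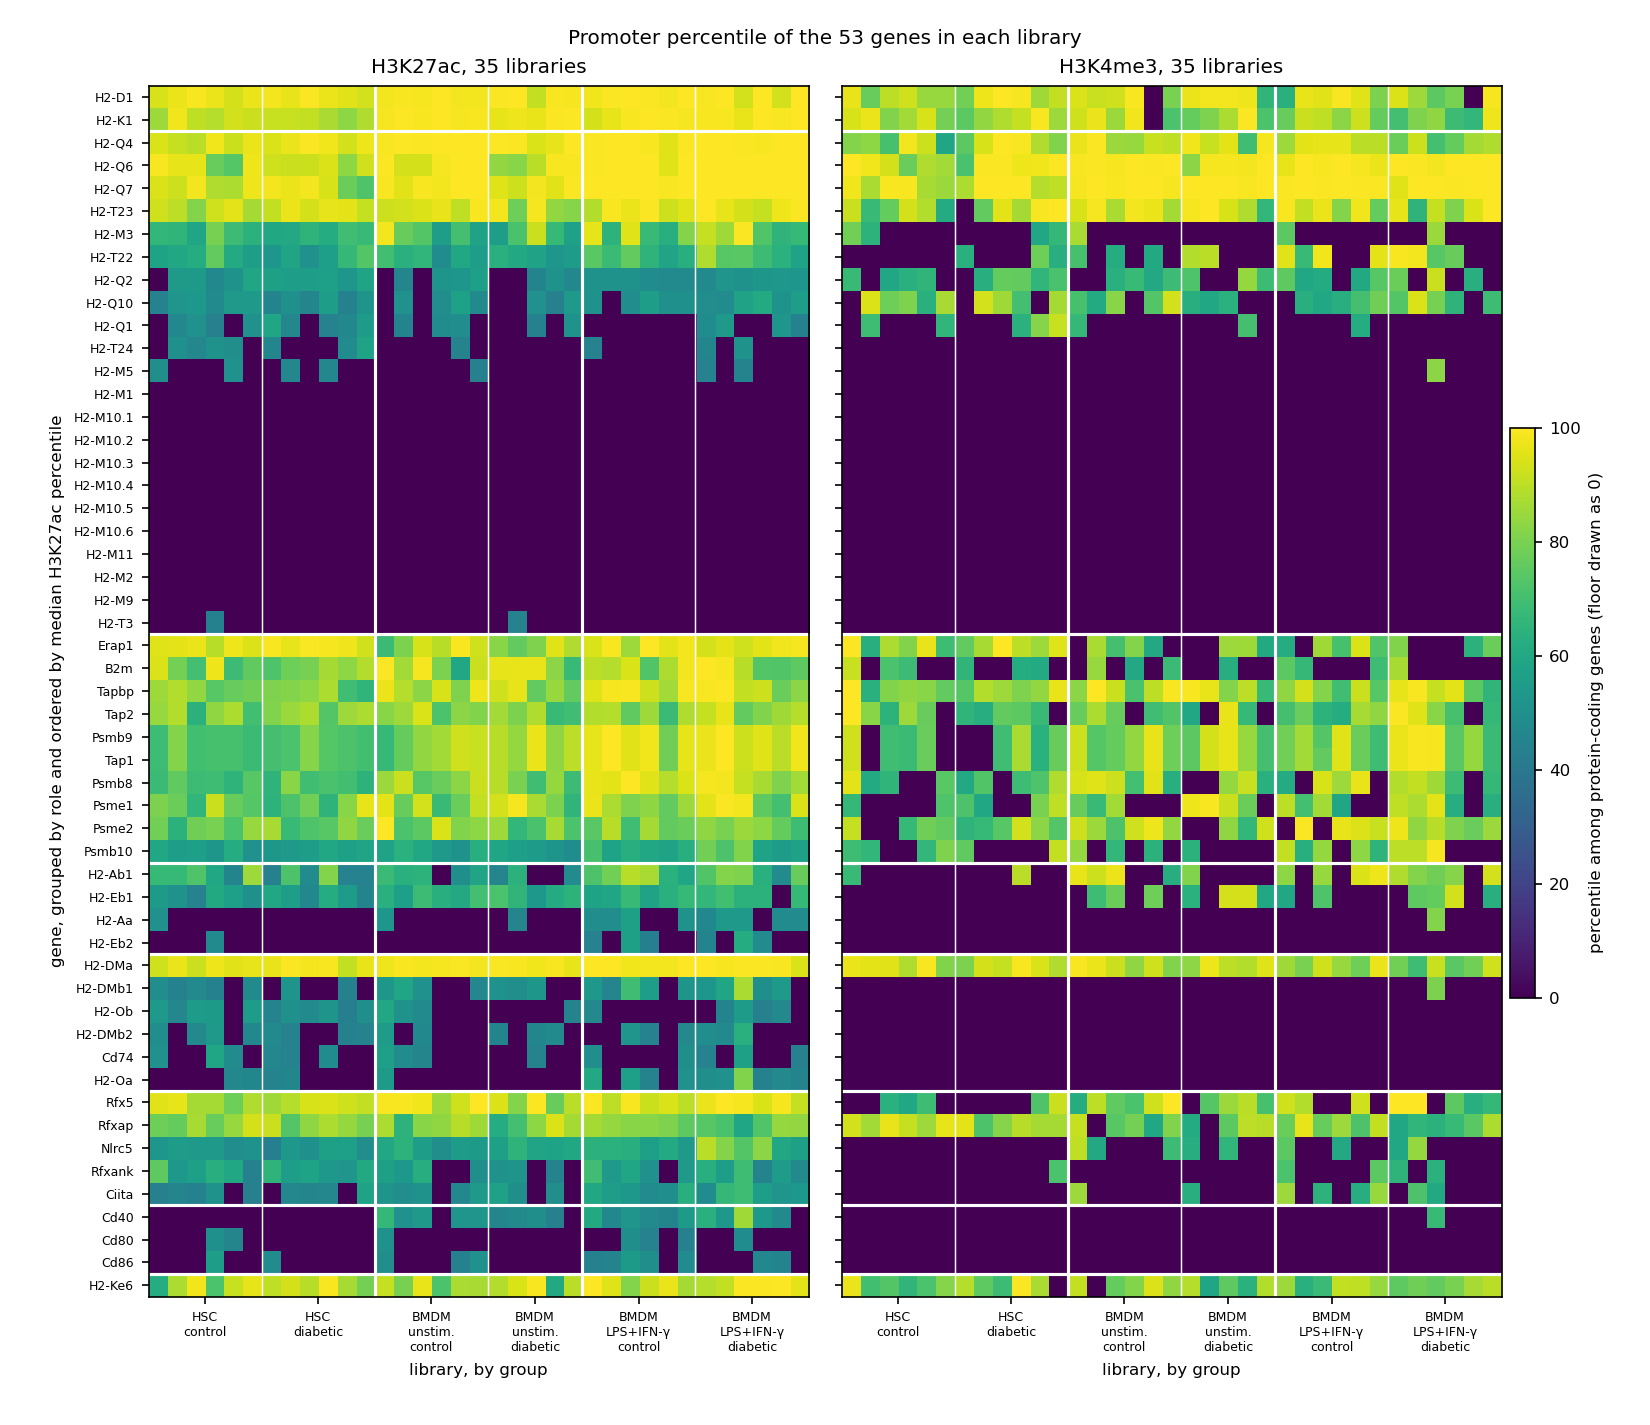
Promoter percentile of the 53 genes (rows, grouped by role) in the 35 H3K27ac and 35 H3K4me3 libraries (columns, by group), with values at the floor drawn as 0. Classical class I and processing genes are above the H3K27ac floor in every column, while class II chains, Cd74 and the costimulatory genes are broken by columns at the floor, and 10 H2-M genes are dark throughout.

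H2-K1 (chr17:33996017-34000347, minus strand), a classical heavy chain, was among the strongest promoters of the genome in macrophages. Its H3K27ac percentile was 85.5, 91.1 and 97.8 (lowest, median, highest) in control HSCs and 83.0, 89.4 and 91.8 in diabetic HSCs. In unstimulated BMDMs it was 98.6, 98.9 and 99.9 in controls and 96.3, 97.3, 96.6, 99.3 and 99.97 in diabetics, and after LPS+IFN-γ 93.4, 98.9 and 99.9, and 96.7, 99.1 and 99.9. Only control HSCs reached into the range of unstimulated BMDMs. H2-D1 (chr17:35262730-35267499), the other classical heavy chain, was already high in HSCs, at 93.5, 97.0 and 98.9 in controls and 93.2, 96.9 and 99.3 in diabetics. B2m (chr2:122147686-122153083), the shared light chain, spread widely within groups, from 68.4 to 97.5 in control HSCs and from 59.5 to 99.5 in unstimulated control BMDMs, so the groups overlapped.

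The 10 class II genes ranged from the floor to the top of the order. H2-Aa (chr17:34282744-34287823, minus strand), the α chain of I-A, was above the H3K27ac floor in 12 of 35 libraries and had a strong peak in none. H2-Ab1 (chr17:34257689-34269419), its β chain, was above the floor in 32, with medians of 63.2 in HSCs, 49.7 in unstimulated and 74.8 in stimulated BMDMs and a strong peak in 7 of 12, 4 of 11 and 10 of 12 libraries. H2-Eb1 (chr17:34305867-34316674), the I-E β chain, was above it in 34, with medians of 54.7, 63.4 and 64.2. Cd74 was above the floor in 15 libraries and had a strong peak in none. H2-DMb1 (chr17:34153072-34160230), the β chain of the peptide exchange factor, was above it in 24, with a strong peak in 2. H2-DMa (chr17:34119541-34139101) was the exception among the 6 accessory genes, above the floor in all 35 libraries and near the top of the order, but its first start sites lie 188 bp from those of Brd2, a ubiquitous chromatin reader.

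Over 34 class I and class I processing genes, tested or not, the mean H3K27ac percentile was 55.7 ± 1.15 (SD, n = 6) in control HSCs and 55.9 ± 0.526 in diabetic HSCs. It was 57.3 ± 1.19 in unstimulated control BMDMs, 55.7 ± 1.12 (n = 5) in diabetic ones, and 59.1 ± 1.81 and 60.6 ± 2.75 after LPS+IFN-γ. Over 10 class II chains and accessory genes it was 46.3 ± 5.13 and 42.9 ± 5.00 in HSCs, 43.8 ± 9.14 and 40.0 ± 2.90 in unstimulated BMDMs, and 49.6 ± 7.75 and 52.8 ± 9.80 after LPS+IFN-γ (control, then diabetic). The SD was larger for class II than for class I in each of the 6 groups. The lists are unlike, since class I averages 34 genes, of which 10 never left the floor, and class II only 10. The class II mean also includes H2-DMa with its window shared with Brd2. The control class II ranges of all 3 cell states overlapped (40.0 to 52.0, 33.4 to 58.2 and 37.6 to 58.9). In diabetic BMDMs the unstimulated libraries lay between 35.9 and 43.1 and the stimulated ones between 43.1 and 70.4, touching at one end. The highest value, 70.4, belonged to stimulated diabetic replicate 3, in which H2-DMb1 reached 87.1, Cd40 85.7 and H2-Oa 80.9. In the stimulated diabetic libraries 0 to 2 of 8 B cell markers and 2 to 3 of 8 dendritic cell markers were above the floor, with Cd79a and Cd79b, and Clec9a and Siglech, at it in all 6.

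**Figure D2:**
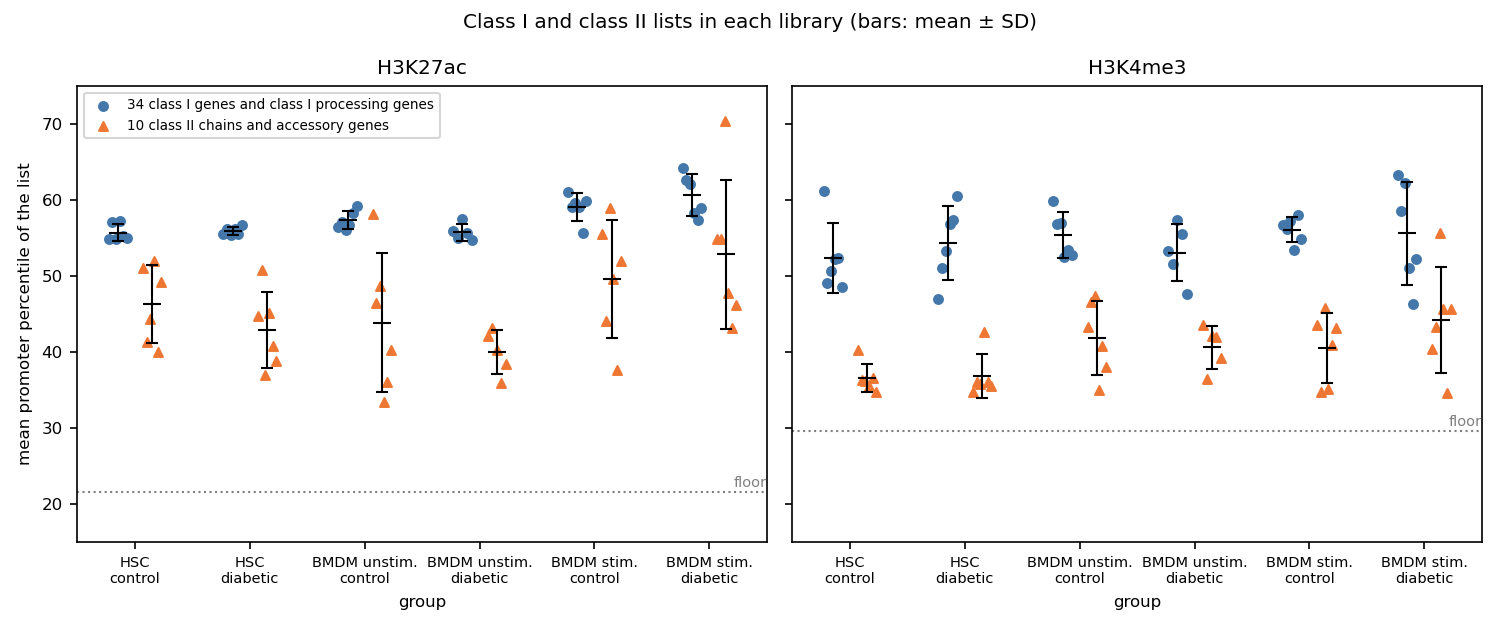
Mean promoter percentile of the 34 class I genes (circles) and the 10 class II genes (triangles) in each library, by group, for H3K27ac (left) and H3K4me3 (right), with bars for mean ± SD and a dotted line at the floor. For H3K27ac the class II group means (40.0 to 52.8) lie below those of class I (55.7 to 60.6) with a larger SD in each group, although class II exceeds class I in stimulated diabetic replicate 3 (70.4 and 62.1) and unstimulated control replicate 1 (58.2 and 56.5). For H3K4me3 the class II group means (36.6 to 44.2) also lie below those of class I in every group, with the larger SD in class I in 3 of the 6 groups.

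Several genes start at more than one place, and the marks differed between those places. Start sites within 500 bp were joined, and each cluster was ranked with 500 bp on either side. At H2-DMa the clusters shared with Brd2 had H3K27ac medians of 96.5 in HSCs, 98.7 in unstimulated and 99.1 in stimulated BMDMs. Its own coding start (chr17:34135628-34135654) had 49.6, 48.0 and 55.6, with a strong peak in 3 of 12 stimulated libraries and in none of the other 23.

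At H2-Eb1 the coding start cluster (chr17:34305867-34306017), which carries the X and Y boxes printed above, was above the H3K27ac floor in 1 of 12 HSC, 2 of 11 unstimulated and 7 of 12 stimulated libraries. A noncoding start within the gene, at chr17:34309575, was far stronger, with medians of 54.7, 63.5 and 64.2. The percentile of H2-Eb1 thus mainly describes its intragenic site. At H2-Ab1 the coding start (chr17:34263209-34263331) had medians of 46.6, 48.8 and 68.5, and a strong peak in 1 of 12, 0 of 11 and 8 of 12 libraries. A separate strong peak 1.7 kb downstream was present in 12 of 12, 10 of 11 and 12 of 12, so this downstream element was marked before and after stimulation.

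**Figure D3:**
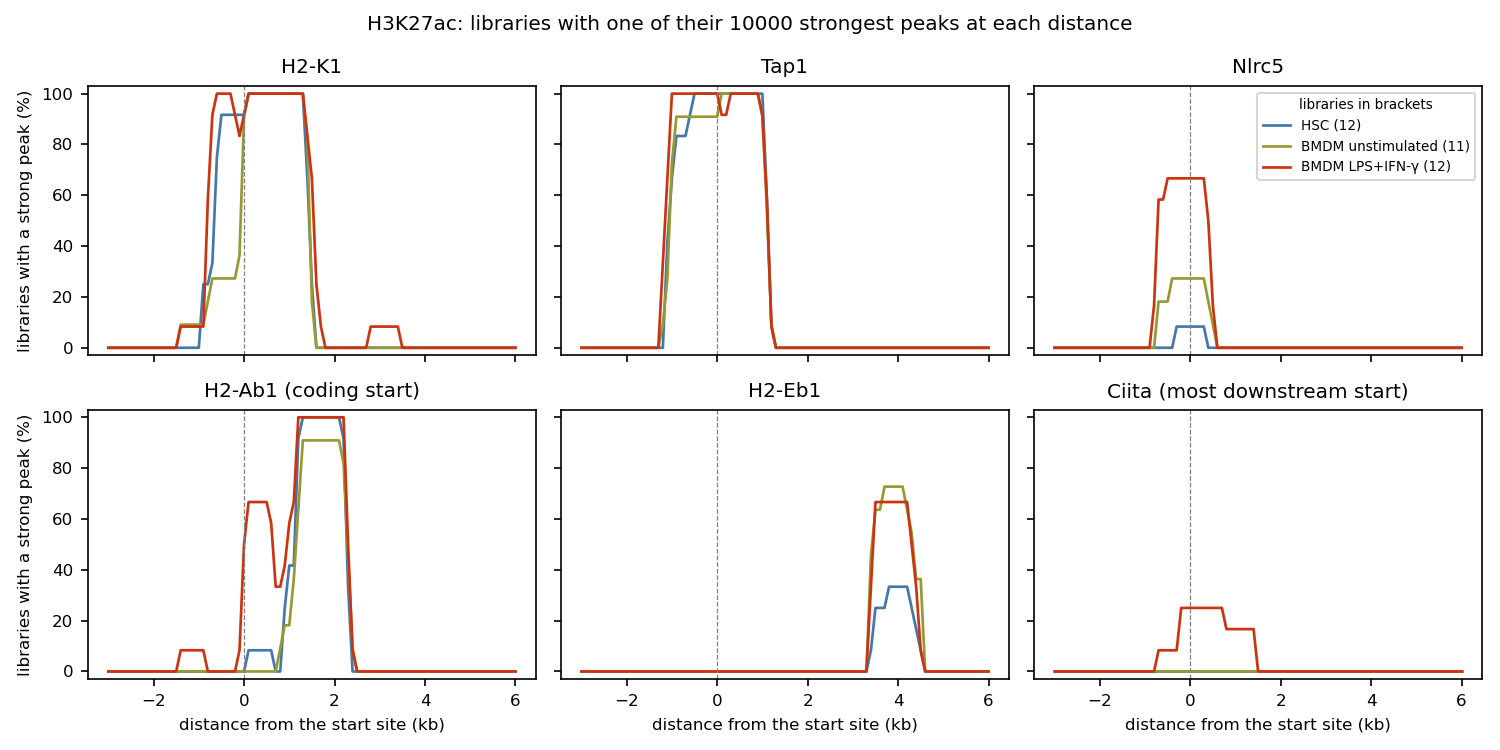
Share of libraries (%) with one of their 10000 strongest H3K27ac peaks at each distance (kb) from the start site of 6 genes, for HSCs (12 libraries), unstimulated BMDMs (11) and LPS+IFN-γ BMDMs (12), downstream to the right. At Nlrc5 the share at the start is 8.33%, 27.3% and 66.7%, at H2-Ab1 a peak at the start stands beside one downstream that all states share, and at H2-Eb1 the peaks lie about 4 kb downstream.

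Ciita (chr16:10480059-10528418), the class II activator, has 3 start clusters here. The most upstream (chr16:10480059-10480164) was above the H3K27ac floor in 0 of 12 HSC, 5 of 11 unstimulated and 10 of 12 stimulated libraries. The most downstream (chr16:10489746-10489783) was above it in 8, 8 and 12, with a strong peak in 3 stimulated libraries alone. These cluster counts are descriptions without a test.

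**Figure D4:**
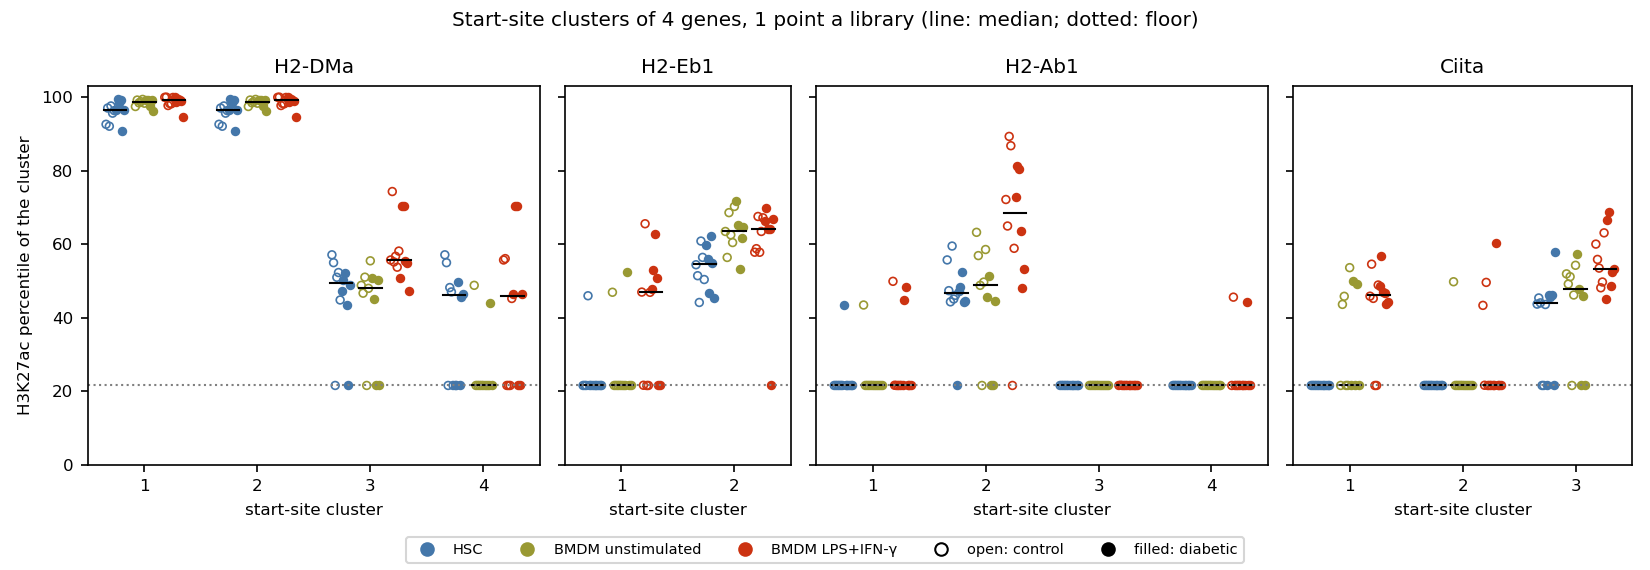
H3K27ac percentile of each start-site cluster (numbered 5′ to 3′) of H2-DMa, H2-Eb1, H2-Ab1 and Ciita, 1 point a library (open control, filled diabetic), with a line at the median and a dotted line at the floor. H2-DMa clusters 1 and 2, shared with Brd2, lie above 90, and H2-Ab1 cluster 2 has a median of 68.5 after LPS+IFN-γ against 46.6 in HSCs and 48.8 in unstimulated BMDMs.

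HSCs and unstimulated BMDMs were compared to ask which of these promoters differ between the progenitor preparation and its macrophage progeny. The class I heavy chains H2-K1, H2-Q4 and H2-Q7 and the Psmb9/Tap1 promoter stood higher in BMDMs, as did H2-Eb1 and Cd40, the receptor through which helper T cells license macrophages. The nonclassical heavy chains H2-T24 and H2-Q2 and Erap1, the aminopeptidase that trims class I peptides, stood lower, as did H2-Ob, a chain of the H2-DM inhibitor, and Rfxank, an Rfx subunit. H3K27ac could be tested at 42 of the 53 promoters (above the floor in at least 5 libraries), and 12 passed at an adjusted p under 0.05 (limma on normal scores over 14411 promoters), 7 higher and 5 lower. Of all promoters tested, 15.8% passed higher and 16.7% lower, so 7 and 5 of 42 were no more than near the background. A score difference of 1 is 1 standard deviation of a normal distribution over the order of genes.

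H2-K1 was higher in BMDMs, with a mean percentile of 98.5, which was 8.52 above that of HSCs, and a score difference of 1.08 (SE 0.19, adjusted p = 2.19e-05). H2-Q4 (98.8 against 95.1) differed by 0.88 (SE 0.21, adjusted p = 0.00124). H2-Q7 differed by 0.67 (SE 0.23, adjusted p = 0.0216, and 0.101 without the 3 libraries). The Q4 and Q7 genes encode nonclassical heavy chains of the H2-Q region.

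The value of Psmb9 and Tap1, identical because they share the window, was 68.1, 70.2 and 81.3 (lowest, median, highest) in control HSCs and 69.6, 72.0 and 82.0 in diabetic HSCs. In unstimulated BMDMs it was 67.1, 84.9 and 92.7 in controls and 89.2, 84.3, 97.2, 83.5 and 90.1 in diabetics. All 5 diabetic BMDM libraries lay above every HSC library, while the control BMDMs overlapped them. The score difference was 0.54 (SE 0.17, adjusted p = 0.00981). Psmb8, another inducible subunit encoded beside them, did not pass (adjusted p = 0.0568).

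Cd40 was at the floor in 12 of 12 HSC libraries. It met the filter through BMDM libraries alone, so only a higher value in BMDMs was possible and its p-value is a description. In unstimulated BMDMs it was above the floor in 5 of 6 control libraries (highest 66.7) and read 45.6, 47.2, 49.9, 43.5 and 21.6 in diabetics. The score difference was 0.66 (SE 0.13, adjusted p = 0.000135). H2-Eb1, whose percentile mainly describes its intragenic start, was higher (63.5 against 53.5, score difference 0.26, SE 0.10, adjusted p = 0.0411). The test was on the gene and not on that start alone. This call ended without the 3 libraries (0.0790) and was kept when each library was left out in turn in 12 of 23 fits.

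Erap1 had a percentile of 89.4, 95.5 and 97.5 in control HSCs and 92.6, 98.1 and 99.5 in diabetic HSCs. In unstimulated BMDMs it was 68.3, 91.2 and 99.0 in controls and 82.1, 75.9, 80.5, 95.1 and 87.9 in diabetics. Of the diabetic BMDM libraries 4 of 5 lay below every HSC library, control BMDMs overlapped with HSCs, and the score difference was -0.68 (SE 0.18, adjusted p = 0.00361). H2-Ob (31.7 against 47.8), Rfxank (41.2 against 58.0), H2-T24 (23.5 against 38.1) and H2-Q2 (39.5 against 51.9) were also lower, by -0.45, -0.45, -0.40 and -0.33 on the score scale (adjusted p = 0.0100, 0.00720, 0.0187 and 0.0248). The call of H2-Ob ended without the 3 libraries (adjusted p = 0.0624). Start sites of Borcs8 and Mef2b lie within 1 kb of Rfxank and cannot be told apart from it. In the same comparison 1 of 5 B cell markers tested (Cd79b, 26.4 against 45.1) and 5 of 7 erythroid markers tested were lower in BMDMs, and none of either list was higher. The median score difference was 0.012 over the B cell markers and -0.46 over the erythroid ones. The part of other cells of the marrow in these differences was not tested.

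Stimulated and unstimulated BMDMs were compared to ask which of these promoters respond to LPS+IFN-γ. In diabetic BMDMs H2-Q6, H2-Q7, H2-Oa and Nlrc5 rose, and H2-Ab1, Psmb10, Psmb8 and Tap1 had differences of the same sign that did not pass. Of 42 promoters tested, 4 rose and 0 fell, where 1.27% of all promoters tested rose and 1.55% fell. The sign is given as a description without a test: 40 of the 42 score differences were above 0, against 6997 of 14411 (48.6%) over all promoters, with a median of 0.40 against -0.00052. At an unadjusted p under 0.05 there were 20 of 42, against 2726 of 14411. When promoters were ordered by fold enrichment, 37 of 42 differences were above 0 and none passed.

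Control BMDMs gave the same comparison with the 3 libraries in doubt. With all libraries, limma called 0 of 42 members and 0% of all promoters, with 9 of 42 and 818 of 14411 at an unadjusted p under 0.05. The exact permutation and Fisher tests called none. That adds little, since the permutation test allows no p below 0.00216 here before adjustment over 14411 promoters. Of the 42 differences 29 were above 0 (median 0.19). Without control LPS+IFN-γ replicate 5 and unstimulated control replicates 5 and 6, 4 genes rose (Psmb8, H2-Q7, and Tap1 and Psmb9, which share a window). In that fit 34 of 42 differences were above 0, and 0.305% of all promoters rose. These libraries were set apart by a score of stimulation itself, so leaving them out favours a difference between the states. The limma p-values without them, here and below, are therefore descriptions only. The difference between the diabetic and the control response passed for none of the 42 (limma interaction, smallest adjusted p 0.557, at H2-Q6).

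**Figure D5:**
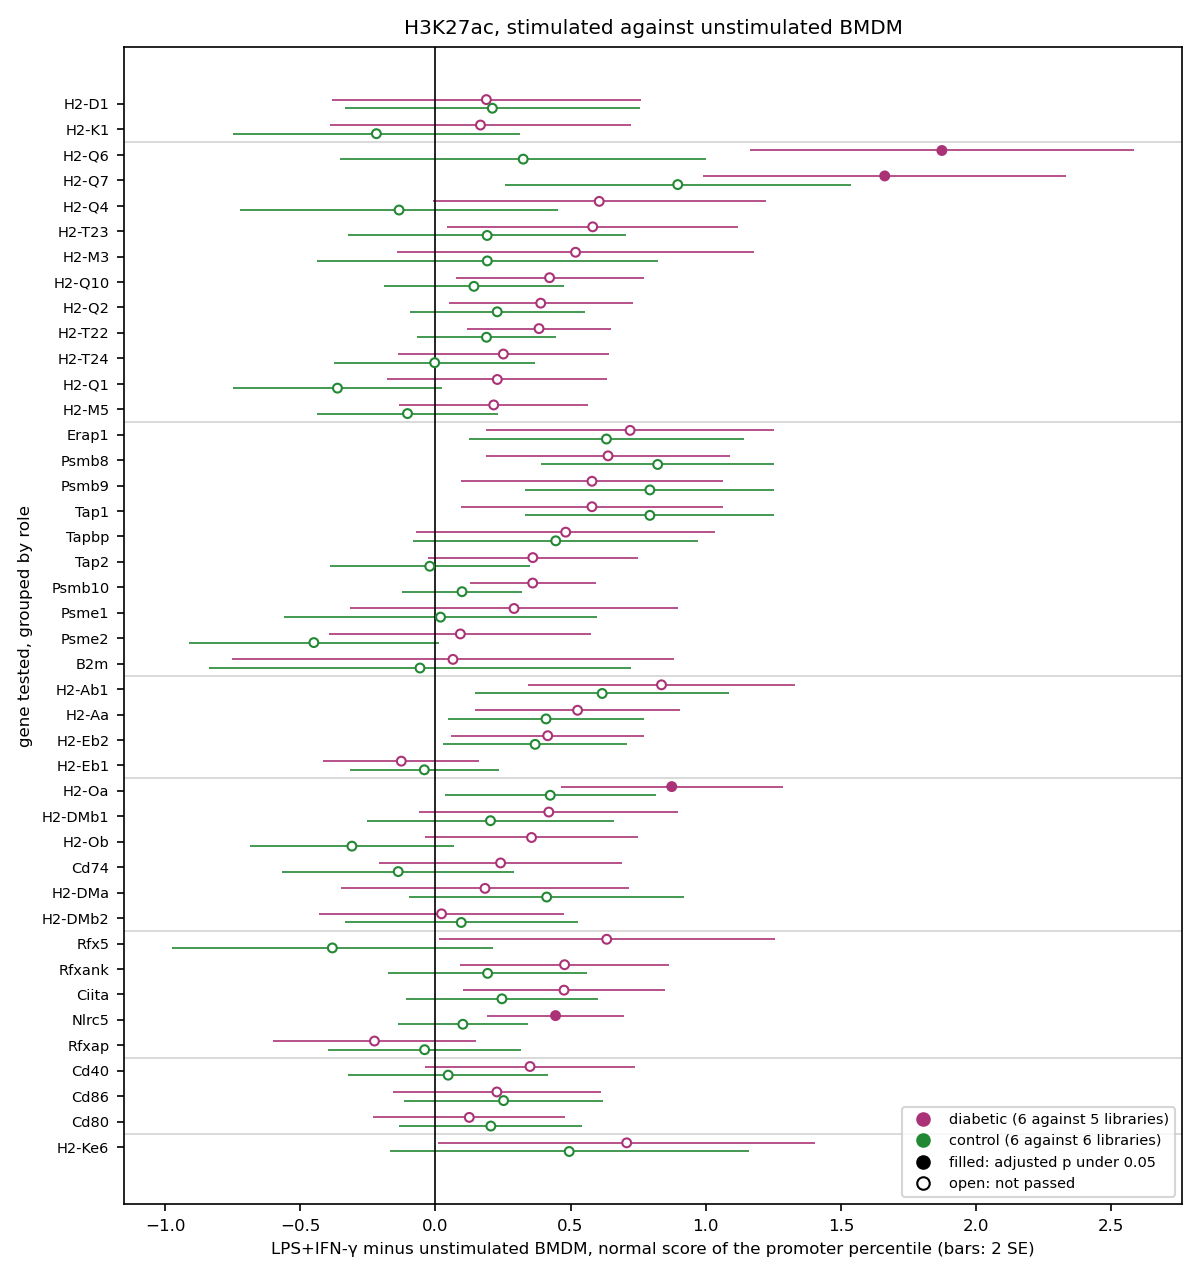
Difference of the normal score between LPS+IFN-γ and unstimulated BMDMs for the 42 promoters tested for H3K27ac, by role, in diabetic mice (purple, 6 against 5 libraries) and control mice (green, 6 against 6), with bars of 2 SE and filled points for an adjusted p under 0.05. Purple points lie right of 0 for 40 of 42 genes, and H2-Q6, H2-Q7, H2-Oa and Nlrc5 are filled.

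H2-Q6 (chr17:35424850-35430055) and H2-Q7 (chr17:35439155-35443773), Qa-2 heavy chains, reached the very top of the order. H2-Q6 read 83.8, 82.1, 89.8, 99.1 and 99.1 in unstimulated diabetic BMDMs and 99.8 to 99.99 in the 6 stimulated diabetic libraries. The groups did not overlap, and the score difference was 1.87 (SE 0.36, adjusted p = 0.00274). H2-Q7 read 95.2, 92.5, 98.1, 95.4 and 99.5 unstimulated and 99.7 to 99.998 stimulated, again without overlap (score difference 1.66, SE 0.34, adjusted p = 0.00440). In control BMDMs H2-Q6 was 93.4, 99.0 and 99.99 unstimulated and 95.0, 99.7 and 99.99 stimulated. The control difference of H2-Q7 was 0.90 (adjusted p = 0.850) and 1.54 (adjusted p = 0.0119) without the 3 libraries. Both promoters share most of their 50-base words with other loci, as given above.

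Psmb8, Psmb9 and Tap1 ended near the top of the order. Psmb10, the remaining immunoproteasome subunit, did not, with a stimulated median of 61.2 (55.3 to 81.0) and a strong peak in 6 of 12 libraries. Psmb9 and Tap1 read 78.1, 96.3 and 99.7 in stimulated control libraries and 89.6, 96.2 and 99.8 in stimulated diabetic ones, with unstimulated values as above. Their score difference was 0.58 in diabetics (SE 0.24, adjusted p = 0.174) and 0.79 in controls (SE 0.23, adjusted p = 0.667), or 1.20 (adjusted p = 0.00669) without the 3 libraries. Psmb8 (chr17:34197721-34201454) read 74.0, 83.7 and 92.1 in unstimulated and 89.0, 95.5 and 99.9 in stimulated control BMDMs. Its difference was 0.82 in controls (SE 0.22, adjusted p = 0.613), or 1.02 (adjusted p = 0.0311) without the 3 libraries, and 0.64 in diabetics (adjusted p = 0.106). All 10 processing genes had a difference above 0 in diabetics (median 0.42, none passed), with the smallest at B2m. H2-K1 and H2-D1, near the top before stimulation, had differences of 0.17 and 0.19 in diabetics.

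Among class II genes, H2-Oa (chr17:34092340-34095234), a chain of the H2-DM inhibitor whose promoter holds an X box match, was at the floor in all 5 unstimulated diabetic libraries and at 43.9, 48.4 and 80.9 (lowest, median, highest) in the 6 stimulated ones. The groups did not overlap (score difference 0.87, SE 0.21, adjusted p = 0.0138, or 0.0597 without stimulated diabetic replicate 3, which gave the 80.9). H2-Ab1 read 45.6, 64.3, 21.6, 21.6 and 48.4 unstimulated and 48.1, 74.8 and 81.4 stimulated in diabetics. Its groups overlapped between 48.1 and 64.3, and the difference of 0.84 (SE 0.25) had an adjusted p of 0.0540. H2-Aa was above the floor in 1 of 5 unstimulated and 5 of 6 stimulated diabetic libraries, and in 1 of 6 and 4 of 6 control ones (diabetic difference 0.53, SE 0.19, adjusted p = 0.113). Cd74 was above it in 1 of 5 and 3 of 6, and in 3 of 6 and 2 of 6. H2-DMb1 read 51.4, 49.3, 52.9, 21.6 and 21.6 unstimulated and 21.6, 53.5 and 87.1 stimulated in diabetics, where 3 of the 6 stimulated libraries lay above every unstimulated one.

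Nlrc5 (chr8:94434356-94527272), the class I activator, read 57.0, 64.9, 58.5, 58.0 and 59.9 in unstimulated diabetic BMDMs and 89.5, 81.6, 73.2, 82.6, 60.1 and 56.7 in stimulated ones. Of the 6, 4 lay above every unstimulated library, 1 among them and 1 just below, and the score difference was 0.44 (SE 0.13, adjusted p = 0.0403). The call is marginal, since it was kept in 3 of 11 fits that left out 1 library and ended with a replicate block (adjusted p = 0.0614). Stimulated control libraries lay between 54.1 and 64.2. The diabetic and control stimulated libraries of Nlrc5 differed by 0.42 (SE 0.12, unadjusted p = 0.000986, adjusted p = 1.00), a comparison that shares the stimulated diabetic libraries. Ciita read 57.4, 49.9, 21.6, 49.3 and 21.6 unstimulated and 48.6, 54.4 and 68.9 stimulated in diabetics (difference 0.48, SE 0.19, adjusted p = 0.146), with overlap. Rfx5 (chr3:94954075-94961561), the DNA-binding Rfx subunit, was high throughout (lowest 76.6) and did not pass (0.63, adjusted p = 0.257). Cd86, a ligand of Cd28, was above the floor in 5 of 6 stimulated control and 2 of 6 stimulated diabetic libraries. Cd80, the other Cd28 ligand, was above it in 7 of 35 libraries in all.

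Diabetic and control mice were compared in each cell state. No promoter of either mark passed, among the 53 or among all genes (limma, 0% called in HSCs, unstimulated and stimulated BMDMs alike). Ranks are set within each library, so a gain or loss shared by most promoters cannot appear in this test. The total level of either mark, which the paper reports as raised in diabetic cells, was not measured here. At an unadjusted p under 0.05, H3K27ac had 0, 3 and 3 of 42 members in the 3 states, against 2.26%, 6.42% and 4.43% of all promoters. H3K4me3 had 0, 4 and 0 of 30, against 2.81%, 4.43% and 5.86%. The exact permutation and Fisher tests called no member. In unstimulated BMDMs the 3 were H2-Q6 (90.8 against 97.5, score difference -0.88, SE 0.36), Rfx5 (-0.68, SE 0.31) and Psme2, a proteasome activator subunit (-0.54, SE 0.24). In stimulated BMDMs they were Nlrc5, H2-Q1 (0.52, SE 0.19) and Cd86 (-0.39, SE 0.18). The H2-Q6 difference shrank to -0.35 (SE 0.34) without the 3 libraries. In unstimulated BMDMs 7 of 42 differences were above 0 (median -0.12), or 15 of 42 without the 3 libraries, and in stimulated BMDMs 32 of 42 (median 0.11), or 23 of 42. Over all promoters 51.6% of unstimulated differences were above 0 (51.8% without the 3 libraries) and 49.3% of stimulated ones (48.8%). These comparisons share their libraries with those of stimulation.

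H3K4me3 could be tested at 30 of the 53 promoters. It was above the floor in all 35 libraries at 5 genes (9.43%, against 4.84% of all genes): H2-Q4, H2-Q6, H2-Q7, Tapbp, the bridge between transporter and class I, and H2-DMa. It was above it in none at 19 (35.8%, against 35.3%), including H2-Eb2, Cd74, H2-Oa, H2-Ob, H2-DMb2, Cd80 and Cd86. H2-K1 and H2-D1 were above it in 34 and 33 libraries, and B2m in 14.

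Between HSCs and unstimulated BMDMs, 7 of the 30 promoters passed for H3K4me3, 5 higher and 2 lower, where 6.70% of all 12478 promoters tested were higher and 8.70% lower. Higher were H2-Eb1 (60.2 against 29.6, score difference 0.88, SE 0.24, adjusted p = 0.0101), at the floor in all 12 HSC libraries, H2-Q7 (99.5 against 93.5, 0.96, adjusted p = 0.0273), Psmb9 and Tap1 (83.7 against 60.3, 0.77, adjusted p = 0.0375) and Rfx5 (75.9 against 47.0, 0.94, adjusted p = 0.0494). H2-Eb1 met the filter through BMDM libraries alone, so only a higher value was possible and its p-value is a description. The Rfx5 call ended with a replicate block (adjusted p = 0.110) and was kept under 2 of 15 alternatives. Lower were Erap1 (59.0 against 85.9, -1.08, SE 0.29, adjusted p = 0.0104) and Rfxap, the third Rfx subunit (69.1 against 88.4, -0.70, adjusted p = 0.0399). Psmb9 and Tap1, which share a window, H2-Q7, H2-Eb1 and Erap1 passed in the same direction for both marks. The share of all promoters that did so was not counted, so this overlap is a description only. The lists of both marks were called against inputs of the same cells. For H2-Eb1 the tests were on the gene, so the marks need not lie at the same start. Without the 3 libraries in doubt, only Erap1 among these genes passed for both marks. The count of 7 for H3K4me3 is fragile. It fell to 2 without unstimulated control replicate 5, without HSC control replicate 6 and without HSC diabetic replicate 1. It fell to 3 without unstimulated diabetic replicates 2 or 4 or HSC control replicate 2, and to 4 without HSC diabetic replicate 2. It was 1 with the number of peaks as a covariate. List length differed between the groups compared. The median was 49624 peaks in control and 89111 in diabetic HSCs, against 161117.5 and 96580 in unstimulated control and diabetic BMDMs. The shortest H3K4me3 list, with 13730 peaks, was a diabetic HSC library. The part of list length in these calls was not tested.

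After LPS+IFN-γ no H3K4me3 promoter passed in diabetic or control BMDMs (limma, 0% of all promoters in both). The exact permutation and Fisher tests called none, though with so few libraries a call by them was hardly possible. At an unadjusted p under 0.05 there were 2 of 30 members in each, against 7.09% and 4.30% of all promoters. The 2 in diabetics were H2-Ab1 (75.5 against 39.9, score difference 1.04, SE 0.44, adjusted p = 0.641) and Psmb10 (61.3 against 36.5, 0.88, SE 0.42), and in controls H2-T22 and Ciita. Of the 30 differences, 18 were above 0 in diabetics (47.1% over all promoters) and 14 in controls (49.1%). With the order by fold the median over the members in diabetics turned from 0.13 to -0.069, and 14 of 31 were above 0. Ciita was above the H3K4me3 floor in 0 of 12 HSC, 2 of 11 unstimulated and 6 of 12 stimulated libraries, and Nlrc5 in 0, 5 and 4. H2-Aa, H2-DMb1 and Cd40 were each above it in 1 library, stimulated diabetic replicate 3, with 81.4, 80.4 and 67.8.

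Other genes of antigen presentation, 32 that do not meet the rule, were taken from a list of accessory proteases, receptors, ligands and cofactors. For H3K27ac 29 could be tested. Between HSCs and unstimulated BMDMs 6 were higher and 3 lower, beside 15.8% and 16.7% of all promoters. The higher ones included Cd83, which keeps class II at the surface (90.2 against 56.7, score difference 1.46, SE 0.20, adjusted p = 4.63e-07), Fcgrt, the neonatal Fc receptor (49.9 against 26.3, 0.65, SE 0.12) and the lysosomal proteases Lgmn and Ctsl. Lower were Creb1 and Nfyb, which bind the promoter module of MHC genes, and Sec61a1 of the translocon. None passed after stimulation. For H3K4me3 26 could be tested and 3 were higher in BMDMs (Tpp2, Hspa5 and Hfe), beside 6.70% of all promoters. Hfe was at the floor in every HSC library, so only a higher value was possible there. Of 10 genes of the response to LPS and IFN-γ, 7 could be tested for H3K27ac. Only Socs1, a feedback inhibitor of interferon signalling, rose in diabetic BMDMs (93.0 against 78.6, score difference 0.97, SE 0.26, adjusted p = 0.0285), the other 6 did not pass, and none passed in controls. Gbp2, Gbp5 and Cxcl9, genes that interferon-γ induces in macrophages, were at the floor in all 6 stimulated diabetic libraries.

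The 5 promoters whose H3K27ac percentile followed that of Ciita most closely over the 35 libraries were Lat2 (Spearman rho 0.82), Gm14326 (0.81), Zfp967 (0.80), Slc6a19 (0.79) and Pla2g7 (0.79). The nearest of the 53 was Cd40, with 0.68, in 75th place. The points share libraries and depth, and 6 libraries had Ciita at the floor, so the values describe likeness only.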

How the data were processed

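Chromatin immunoprecipitation of H3K27ac (ab4729) and H3K4me3 (ab8580) was sequenced as 50-base single reads. The authors deposited 1 narrowPeak list per library, called against the input of the same cells. Each deposited peak carries a score, a fold enrichment, a −log10 p and a −log10 q value. The submitters' processing notes name Bowtie2 2.2.6, Picard 2.18.14 and 2.19.2, MACS2 2.2.7.1 and GRCm38, without saying how reads with several matches were treated. Of 106 samples, 70 libraries were used and 36 inputs had no list.

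Here the strongest promoter peak within 1 kb of any GENCODE start site (93513 start sites) was ranked by −log10 p within each library, with a common floor, and filtered to promoters above it in at least 5 of 35 libraries. Percentiles became normal scores, fitted in limma 3.58.1 (R 4.3.3; trend and robust) over 6 groups per mark, with Benjamini-Hochberg adjustment over all promoters and a threshold of 0.05. The fit was tested on simulated data. Read depth is not given by the lists, so precision follows from the number of libraries. The labels number the libraries of a group without tying them to animals, so p-values measure only the spread between libraries. Always described were 18 genes of known role, and in each comparison the genes past the threshold, up to 8 in each direction. The genes and lists were chosen with earlier results of these data known. Alternatives covered the ranking measure, window, overlap, filter, floor, tests, a replicate block, peak number, and leaving out libraries. Start-site clusters were joined from sites within 500 bp, for genes whose sites span over 2000 bp.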

Additional observations from a re-analysis of the deposited data

Results flagged for a closer look

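Dixon's gap was computed in 48 groups of libraries, for the class means and for H2-Oa, H2-Q6, H2-Q7 and Nlrc5. In 11 of them a library lay far from the rest, where chance gives about 1 in 20 groups for independent normal values. Percentiles tied at the floor or crowded at the top are not normal, and the groups share libraries. The flags therefore cannot be judged against that rate. The 11 values belong to 7 libraries. Control LPS+IFN-γ BMDM replicate 5 was low for H3K27ac in the class I mean (55.7), H2-Q6 (95.0) and H2-Q7 (98.9). It is the library that scored with the unstimulated ones on other genes.

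Stimulated diabetic BMDM replicate 3 stood apart for H2-Oa (80.9, high) and H2-Q6 (99.8, low), replicate 2 of that group for H2-Q7 (99.7, low), unstimulated control BMDM replicate 1 for H2-Oa (54.5, high) and diabetic HSC replicate 5 for H2-Q6 (83.0, low). The low values of H2-Q6 and H2-Q7 after stimulation lie within 0.5 of the top of the scale.

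For H3K4me3, control HSC replicate 1 was high in the class I mean (61.2) and in the class II mean (40.2), and diabetic HSC replicate 4 in the class II mean (42.6).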

How the results depend on the processing

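None of the 23 member differences that passed reversed its sign under an alternative. Of the H3K27ac calls between HSCs and unstimulated BMDMs, H2-K1 passed under all 13 alternatives it could be computed for. The count of 12 genes was 0 by Fisher's exact test on strong peaks, 4 in control mice alone and 5 in diabetic mice alone. After LPS+IFN-γ in diabetic BMDMs the count of 4 became 0 with the order by fold, by the exact permutation test (smallest p it allows 0.00433, adjusted over 14411 promoters) and by Fisher's exact test, and 2 with peaks of −log10 q of at least 5. In control BMDMs it rose from 0 to 4 without the 3 libraries in doubt, which were set apart by a score of stimulation. For H3K4me3 between cell types the count of 7 became 2 with the order by fold, with peaks of −log10 q of at least 5 and without the 3 libraries, 3 by the permutation test, 0 by Fisher's exact test and in control or diabetic mice alone, 1 with peak number as a covariate, and 4 with the floor set without the shallowest list, a choice made after seeing the data. The causes of these shifts were not tested. Leaving out 1 library at a time gave 10 to 15 genes for H3K27ac and 2 to 7 for H3K4me3 between cell types, 2 to 6 for H3K27ac stimulation in diabetics (2 without stimulated diabetic replicate 3), and 0 in all other comparisons. Same-numbered libraries did not deviate together in every pair (correlations of -0.27 to 0.36 for H3K27ac), so the numbers were not taken to pair the samples. Stimulated and unstimulated diabetic BMDMs of the same number correlated above 0 in all 5 pairs of each mark (0.035 to 0.36 for H3K27ac, 0.016 to 0.29 for H3K4me3, medians 0.12, against -0.044 and -0.055 for unlike numbers), though not above 0.1 in every pair, a hint from the data that the numbers may mark something shared. With a replicate block the counts were 13, 4 and 6 for these comparisons and 0 for the rest, the calls of Nlrc5 (H3K27ac, stimulation) and Rfx5 (H3K4me3, cell type) ended, and calls over all promoters for stimulation in diabetics fell from 407 to 234. The lists give no read depth, and the floor limits what can be seen at weak class II promoters.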

Other observations

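The H2-M10 genes, heavy chains known from the vomeronasal organ, combined an X box match in 4 of 6 promoters (H2-M10.1, H2-M10.2, H2-M10.5 and H2-M10.6) with H3K27ac and H3K4me3 at the floor in all 35 libraries of each mark. H2-T3, the thymus leukaemia antigen, was above the H3K27ac floor in 2 libraries. H2-Ke6, the dehydrogenase that shares only the prefix, was above it in all 35.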
